A study of Mus musculus with 6 samples.

Results

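The Schlafen genes are a family of interferon-induced genes that, in the mouse, lie side by side on chromosome 11. Transcriptomic analysis (TA) of the kidney covered 7 of them, Slfn1, Slfn2, Slfn3, Slfn4, Slfn5, Slfn8 and Slfn9, out of 36870 gene names on the array. They were taken by name: every probe that is not a control and that carries 1 of these names in the array annotation was included, whatever its signal. This gave 13 probes of 60 bases. The kidneys came from 3 female MRL/MpJ mice (MRL mice) and 3 female MRL/MpJ-Fas lpr/lpr mice (LPR mice), all 6 months of age and kept free of specific pathogens, with no treatment named in the labels. LPR mice share the MRL/MpJ background and are in addition homozygous for the lpr mutation of Fas, the gene of a death receptor through which activated lymphocytes are removed. They develop a lupus-like disease with nephritis, and the study asked about the lymphoid tissue that forms around vessels in their kidneys. Each mouse gave 1 array, and all 6 arrays lay on 1 slide.

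Mouse Schlafen proteins fall into a short group (Slfn1 and Slfn2), an intermediate group (Slfn3 and Slfn4) and a long group with a helicase-like domain (Slfn5, Slfn8, Slfn9, Slfn14 and the pseudogene Slfn10-ps). All share a domain that binds nucleic acid, and several family members are known to cleave or protect transfer RNA. In lymphoid and myeloid cells, Schlafen genes are induced by interferon and change with activation and differentiation, and mice with a defective Slfn2 lose the quiescence of T cells.

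The sequences of the probes are shown first, because of the 2 probes of Slfn8 and the 2 probes of Slfn9 only 1 each passed the test. They are printed 5′ to 3′ as in the array files, with their mm9 (NCBI build 37) positions. Capitals occur in 1 probe only, where they mark the bases that are the same in a stretch of the promoter of an unrelated gene. The single probe of Slfn2 lies at chr11:82883791-82883850, that of Slfn1 at chr11:82935656-82935715, that of Slfn3 at chr11:83028431-83028490 and that of Slfn4 at chr11:83002974-83003033, all on the plus strand. The probes of Slfn8 lie at chr11:82815804-82815863 (A_55_P2117656) and chr11:82830985-82831044 (A_66_P105585), and those of Slfn9 at chr11:82793812-82793871 (A_55_P2110537) and chr11:82794408-82794467 (A_51_P504991), all on the minus strand.
Slfn1 A_52_P425890: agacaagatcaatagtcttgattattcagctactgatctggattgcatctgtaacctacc
Slfn2 A_51_P423578: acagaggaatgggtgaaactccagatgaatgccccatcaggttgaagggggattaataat
Slfn3 A_51_P228768: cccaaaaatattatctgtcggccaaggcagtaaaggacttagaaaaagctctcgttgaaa
Slfn4 A_51_P183812: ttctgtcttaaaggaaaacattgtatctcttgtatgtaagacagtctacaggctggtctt
Slfn8 A_55_P2117656: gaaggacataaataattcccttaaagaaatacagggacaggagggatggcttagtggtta
Slfn8 A_66_P105585: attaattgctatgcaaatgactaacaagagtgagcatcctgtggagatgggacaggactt
Slfn9 A_55_P2110537: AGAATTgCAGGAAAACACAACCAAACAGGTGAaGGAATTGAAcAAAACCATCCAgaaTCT
Slfn9 A_51_P504991: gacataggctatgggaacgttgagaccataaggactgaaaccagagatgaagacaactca

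The first 4 probes are each tied by the array annotation to the transcript of 1 gene, and none of them matched any of 32851 RefSeq promoter windows of 300 bases. A match here is at least 80% identity over at least 30 bases without gaps. The probe A_55_P2110537 of Slfn9 matched 6 windows of 5 other genes, with 50 to 54 of its 60 bases the same, and the capitals show the best of these matches. The probe A_55_P2117656 of Slfn8 matched 1 window of another gene, with 28 of its bases the same. The probe A_51_P504991 matched no window, but its 4 RefSeq transcripts belong to 3 genes, Slfn8, Slfn9 and Slfn10-ps. Its signal can therefore come from any of these, and it is described below as the shared probe of the long group.

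Values are log2 intensities relative to the 75th percentile of the array, so that 0 is the signal below which 75% of the spots of that array lie. A log2 change is LPR minus MRL with its standard error (SE), from limma with Benjamini-Hochberg adjustment over 39916 probes, those with a signal well above background in 3 or more of the 6 mice. Over these probes the median log2 change was -0.14. Of the 13 Schlafen probes, 11 were tested and 9 were well above background in all 6 mice. In LPR mice, 3 of the 11 were higher at an adjusted p under 0.05, where 6.53% of all tested probes were, and 0 were lower, where 6.17% of all tested probes were. At an unadjusted p under 0.05, the same fit had 3 of the 11 higher and 1 lower, beside 9.84% and 20.5% of all tested probes. In 3 of the 11 probes every LPR mouse was above every MRL mouse, a pattern found in 11.0% of all tested probes. The median log2 change of the 11 was 0.02. The family was thus split. The probe of Slfn2, 1 probe of Slfn8 and the shared probe of the long group rose, and the other 8 did not pass the test. That probe of Slfn8 was well above background in no MRL mouse and entered the test through the 3 LPR mice alone. Its place in these counts rests on MRL signals at background, and its call did not hold under every processing, as given below. In 7 of the 11 tested probes LPR 2 was the lowest of the LPR mice, and LPR 1 was the lowest in 3.

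**Figure D1:**
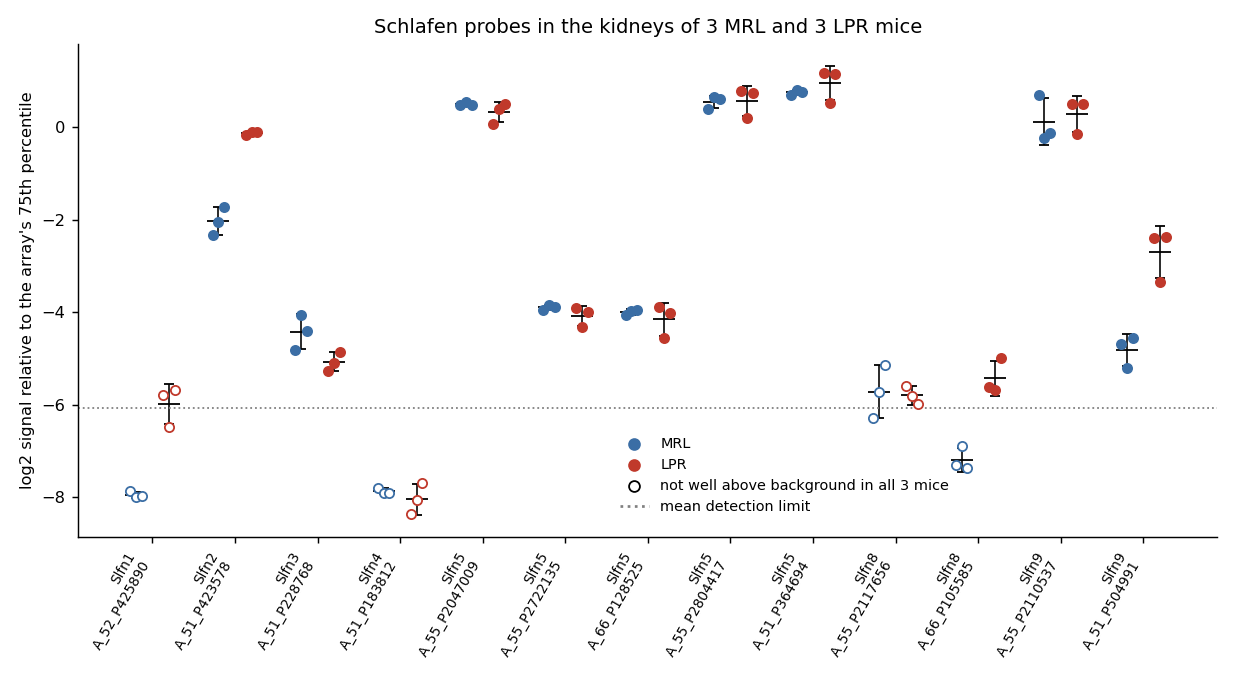
Signal of each of the 13 Schlafen probes (x axis) as log2 relative to the 75th percentile of the array (y axis), with 1 point per mouse (MRL blue, LPR red), the mean as a dash and the SD of 3 mice as a bar; LPR mice are above MRL mice without overlap for Slfn1, Slfn2, A_66_P105585 of Slfn8 and A_51_P504991 of Slfn9, and below them for Slfn3. Open points belong to groups in which the probe was not well above background in all 3 mice, and the dotted line is the mean over the arrays of the lowest signal well above background, -6.08.

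Of the short group, Slfn2 had the clearest rise. Its probe read -2.32, -2.05 and -1.72 in MRL 1, 2 and 3, and -0.17, -0.10 and -0.11 in LPR 1, 2 and 3. The groups were far apart, and the LPR mice were almost equal to each other, with an SD of 0.04 against 0.30 in MRL mice (n = 3 each). The log2 change was 1.90 (SE 0.16, 95% interval 1.52 to 2.29), or 3.74-fold, with an adjusted p of 0.000479 in limma. Slfn2 passed the test under every one of the alternatives to the processing that were run, with a log2 change of 1.57 to 2.06.

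Slfn1, the other short gene, was near the limit of detection. Its probe read -7.87, -7.99 and -7.98 in MRL mice, none of them well above background. In LPR 1, 2 and 3 it read -5.78, -6.49 and -5.69, and LPR 1 and LPR 3 were well above background. The groups did not overlap, but the probe did not reach the number of arrays needed for the test, and no fold is given because the LPR mean lay below the detection limit of the MRL arrays. Fitted without the filter on dim probes, it passed the threshold in limma with a log2 change of 1.96 (SE 0.23, adjusted p = 0.00598), which rests on MRL signals at background.

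Of the intermediate group, only Slfn3 could be tested. It read -4.81, -4.05 and -4.42 in MRL mice and -5.27, -5.09 and -4.86 in LPR mice, well above background in all 6. Here every LPR mouse lay below every MRL mouse, a pattern found in 26.9% of all tested probes, and MRL 1 and LPR 3 were only a little apart. The log2 change of -0.65 (SE 0.21, 95% interval -1.15 to -0.15) did not pass the threshold (adjusted p = 0.0923 in limma). Slfn4, which is known from monocytes and macrophages, read -7.80, -7.91 and -7.91 in MRL mice and -8.37, -8.07 and -7.70 in LPR mice. It was not well above background in any mouse, the groups overlapped, and no level or fold can be given for it at this sensitivity.

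Of the long group, Slfn5 was read by 5 probes, and none of them passed the test. Their log2 changes ran from -0.18 for A_55_P2722135 to 0.20 for A_51_P364694, with adjusted p-values of 0.388 to 0.946 in limma. The probe nearest the 3′ end, A_51_P364694 (chr11:82778192-82778251, plus strand, mm9), read 0.69, 0.80 and 0.77 in MRL mice and 1.18, 0.53 and 1.14 in LPR mice. LPR 1 and LPR 3 were above the MRL mice and LPR 2 was below them, so that the groups overlapped, with a 95% interval of the log2 change from -0.24 to 0.64. The same order held for A_55_P2804417 (chr11:82776358-82776417), which read 0.39, 0.64 and 0.60 in MRL mice and 0.78, 0.19 and 0.73 in LPR mice. The probe nearest the 5′ end, A_55_P2047009 (chr11:82765536-82765595), read 0.49, 0.54 and 0.47 in MRL mice and 0.08, 0.39 and 0.51 in LPR mice, and there LPR 1 was the lowest. A_55_P2722135 and A_66_P128525, between them, had log2 changes of -0.18 (SE 0.13) and -0.16 (SE 0.18).

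The probes of Slfn5 were also compared within each array. A_51_P364694 minus A_66_P128525, 2 probes that both carry the RefSeq transcript of Slfn5, was 4.72 to 4.76 in the MRL mice and 5.07 to 5.17 in the LPR mice, without overlap. The difference of the changes was 0.36 on the log2 scale. Of the 10 pairs of Slfn5 probes, 5 had per-mouse differences that did not overlap between the groups, as did 22.9% of the pairs of tested probes of 1 gene over the whole array. With 3 mice against 3, an exact permutation test cannot give a p below 0.1, so these differences are given without a test. A difference of this kind compares the changes of probes with each other and does not say that any of them rose.

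Slfn8 was read by 2 probes, of which 1 passed the test. A_66_P105585 read -7.31, -6.90 and -7.37 in MRL mice and -5.62, -5.69 and -4.99 in LPR mice. It was not well above background in any MRL mouse and was in all 3 LPR mice. The rise in LPR mice was at least 1.43-fold (fitted log2 change 1.76, SE 0.22, adjusted p = 0.00306 in limma). The bound sets the LPR mean against the lowest signal that was well above background on each MRL array. This call was lost with normexp background correction (0.11, adjusted p = 0.453), with a floor at the detection limit (0.52, adjusted p = 0.113) and with the slide position as a block (1.58, adjusted p = 0.0586). The other probe, A_55_P2117656, read -6.29, -5.72 and -5.15 in MRL mice and -5.59, -5.82 and -5.99 in LPR mice, was well above background in 2 mice of each group, and had a log2 change of -0.08 (SE 0.28, adjusted p = 0.872).

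Of the 2 probes of Slfn9, 1 passed the test as well. The shared probe of the long group, A_51_P504991, read -4.69, -5.20 and -4.56 in MRL mice and -2.39, -3.34 and -2.38 in LPR mice, well above background in all 6. LPR 2 was the lowest LPR mouse and was still above every MRL mouse. Its log2 change of 2.12 (SE 0.30, 95% interval 1.41 to 2.83), or 4.33-fold, had an adjusted p of 0.00534 in limma. It was 0.92 with normexp background correction (adjusted p = 0.00113), and it did not pass the test named in the study's methods once that was adjusted. The other probe, A_55_P2110537, read 0.70, -0.24 and -0.12 in MRL mice and 0.50, -0.16 and 0.50 in LPR mice. Its groups overlapped throughout, and its log2 change was 0.17 (SE 0.30, 95% interval -0.53 to 0.87, adjusted p = 0.730). Within the arrays, A_51_P504991 minus A_55_P2110537 was -5.40 to -4.44 in MRL mice and -3.18 to -2.88 in LPR mice, so the changes of the 2 probes differed by 1.95 on the log2 scale. A_55_P2110537 is the probe printed with capitals above, whose sequence recurs near other genes; its part in this difference was not tested. Averaging both probes of a gene gave 1.14 for Slfn9 (adjusted p = 0.0409 in limma) and 0.84 for Slfn8 (adjusted p = 0.0221). The brighter probe of each alone did not pass. Each mean takes in the probe already called, so it adds no separate support. Neither probe named Slfn9 is clearly particular to that gene, and the called probe of Slfn8 was at background in MRL mice.

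**Figure D2:**
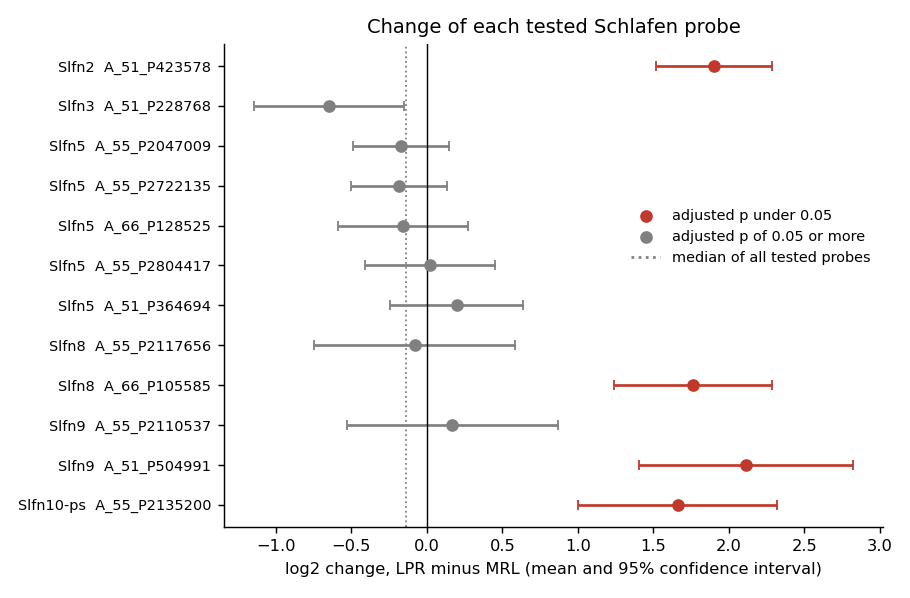
Log2 change (x axis, LPR minus MRL, with its 95% confidence interval from limma) of the 11 tested Schlafen probes and of Slfn10-ps (y axis), red where the adjusted p was under 0.05. The 4 called probes lie between 1.66 and 2.12, while the intervals of all others but Slfn3 include 0. The called probe of Slfn8 was not well above background in any MRL mouse. The dotted line is the median of all tested probes, -0.14.

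The other Schlafen genes on the array were looked up in the same way. Slfn10-ps, a pseudogene of the long group, was read by A_55_P2135200 (chr11:82842116-82842175, minus strand, mm9) at -4.61, -4.60 and -4.68 in MRL mice and -2.78, -3.64 and -2.48 in LPR mice. It rose by 1.66 (SE 0.28, adjusted p = 0.0112 in limma), or 3.16-fold, with LPR 2 again the lowest of the LPR mice. The call was lost with the slide position as a block (1.84, adjusted p = 0.0756) and in the adjusted test of the methods, and the change was 0.62 with normexp. Its second probe was well above background in LPR 1 alone and was not tested. Slfn14, Slfn5os (an antisense transcript of Slfn5) and Slfnl1 were not well above background in any mouse.

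**Figure D3:**
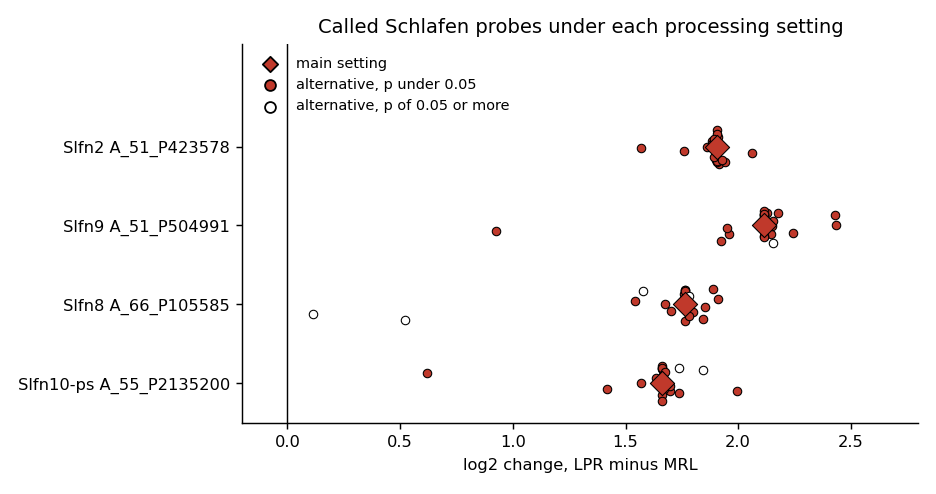
Log2 change (x axis, LPR minus MRL) of the 4 called Schlafen probes (y axis) as reported (diamonds) and under each alternative processing (circles, open where p was 0.05 or more). Slfn2 stays between 1.57 and 2.06, whereas Slfn8 falls to 0.11 and 0.52 under the 2 alternatives that limit signals at background.

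The promoters of the members are shown for the letters that interferon-activated factors are known to bind. These are RefSeq windows on GRCm38.p6, from 250 bases before to 50 bases after the annotated start, printed along the strand of the gene. The core of the interferon-stimulated response element was searched as GAAANNGAAA on both strands, and the gamma-activated site as TTCNNNGAA, which is its own reverse complement. Of all 32851 windows, 3.44% held the first and 8.30% the second. All 7 members had a window; those of Slfn5, Slfn8 and Slfn9 held the first, and none held the second. Slfn8 has a second window, whose copy of the element is the same one. Capitals mark the matches, which are on the minus strand of the gene in Slfn8 and Slfn9.
Slfn2, chr11:83064862-83065161, plus strand: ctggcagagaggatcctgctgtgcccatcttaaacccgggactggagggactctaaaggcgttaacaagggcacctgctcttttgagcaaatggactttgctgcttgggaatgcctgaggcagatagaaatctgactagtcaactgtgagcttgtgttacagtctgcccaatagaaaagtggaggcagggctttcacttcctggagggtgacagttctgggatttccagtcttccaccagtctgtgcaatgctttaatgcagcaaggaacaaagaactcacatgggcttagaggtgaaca
Slfn5, chr11:82951852-82952151, plus strand: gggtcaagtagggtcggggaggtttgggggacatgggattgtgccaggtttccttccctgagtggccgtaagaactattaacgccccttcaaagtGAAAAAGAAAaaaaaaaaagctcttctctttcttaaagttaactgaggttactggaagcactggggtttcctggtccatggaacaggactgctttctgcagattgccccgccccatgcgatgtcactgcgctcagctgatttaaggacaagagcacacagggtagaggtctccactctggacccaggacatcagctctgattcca
Slfn8, chr11:83020761-83021060, minus strand: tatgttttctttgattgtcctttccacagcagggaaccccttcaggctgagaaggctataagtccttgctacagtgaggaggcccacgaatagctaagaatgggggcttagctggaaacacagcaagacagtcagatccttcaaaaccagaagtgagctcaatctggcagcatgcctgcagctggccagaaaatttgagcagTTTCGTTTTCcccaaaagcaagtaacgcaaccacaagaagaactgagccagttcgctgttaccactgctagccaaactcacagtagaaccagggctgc
Slfn9, chr11:82991781-82992080, minus strand: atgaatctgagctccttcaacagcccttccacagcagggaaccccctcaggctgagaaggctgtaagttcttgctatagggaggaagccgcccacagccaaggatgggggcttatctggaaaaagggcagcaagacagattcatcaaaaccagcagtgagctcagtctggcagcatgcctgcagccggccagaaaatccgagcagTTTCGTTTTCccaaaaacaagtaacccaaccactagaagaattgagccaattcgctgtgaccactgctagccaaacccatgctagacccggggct

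The element of Slfn8 and that of Slfn9 have the same letters and nearly the same place, at -48 to -39 and at -45 to -36 relative to the start. These windows also share a run of 20 identical bases, which lies before the element and does not include it. This run is the longest of any pair of the 7 members, and the next longest, between Slfn1 and Slfn4, has 15. The match in Slfn5, at -155 to -146, lies at the head of a run of A, and Slfn5 did not pass the test with any probe. In Slfn2, the gene with the clearest rise, neither set of letters occurs in the window, which says only that they are not in these 300 bases. The probe A_55_P2047009 of Slfn5 lies inside the printed Slfn5 window, at -68 to -9, before the RefSeq start, and the array files give it an Ensembl transcript and no RefSeq one. No binding was measured, and the matches are a description of the letters.

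The type I interferon response, which is known to include Schlafen genes, was higher in LPR mice in most of its genes. Of 28 listed genes, all measured, 22 rose and 0 fell by the brightest probe of each gene, and the median log2 change was 1.11. Over 25799 tested genes 7.12% were higher and 5.47% were lower, with a median of -0.12. Among them were Mx1, an antiviral GTPase (log2 change 3.21, SE 0.34, adjusted p = 0.00137, well above background in 1 of 3 MRL mice), Zbp1, a sensor of nucleic acid (2.86, SE 0.17), and Bst2, which tethers viruses to the cell surface (1.91, SE 0.09). Oas3, an oligoadenylate synthetase, was well above background in no MRL mouse, and its rise is known only to be at least 1.38-fold. The value of Slfn2 (1.90) was next to that of Bst2. Rsad2 (-0.02), Ifit2 (-0.06), Ifi44 (0.32), Cmpk2 (0.34), Ddx58 (0.37) and Herc6 (0.62) did not pass, so the list, like the Schlafen family, held genes that passed and genes that did not. With the slide position as a block, which rests the comparison on LPR 1 and the MRL mice, 13 genes of the list were called, and the adjusted test of the methods also called 13.

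The interferon gamma response was higher in LPR mice as well. Of 14 listed genes 13 rose and 0 fell, with a median log2 change of 3.09, led by Iigp1 (5.03, SE 0.24) and Igtp (4.06, SE 0.11), GTPases of the defence against intracellular microbes, Gbp2 (3.73, SE 0.15), a guanylate-binding protein, and Ciita (3.46, SE 0.16), which drives the class II histocompatibility genes. Gbp5 did not pass (-0.05). Among the ligands, Ifng, the interferon of T cells and natural killer cells, read -7.94, -6.64 and -6.36 in MRL mice, none well above background, and -1.85, -1.98 and -1.91 in LPR mice. It was at least 16.4-fold higher (adjusted p = 0.000276 in limma). The type I ligands Ifna1 (-0.06), Ifna2 (0.01), Ifna5 (-0.04) and Ifnk (-0.25) did not pass, and Ifna4, Ifnb1 and Ifne were not tested because too few arrays were above background.

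Of 15 listed genes of interferon signalling, 8 rose and 0 fell. They included the feedback inhibitors Socs1 (2.76, SE 0.16) and Socs3 (2.19, SE 0.20), the factors Irf1 (2.44, SE 0.13), Irf9 (1.21, SE 0.11), Irf5 (1.09, SE 0.21) and Stat2 (0.59, SE 0.12), and the receptor chain Ifngr2 (0.62, SE 0.10). The receptor chains Ifngr1 (0.47), Ifnar1 (-0.08) and Ifnar2 (0.20), the kinases Tyk2 (0.51), Jak1 (-0.08) and Jak2 (0.19), and Irf3 (-0.11) did not pass.

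**Figure D4:**
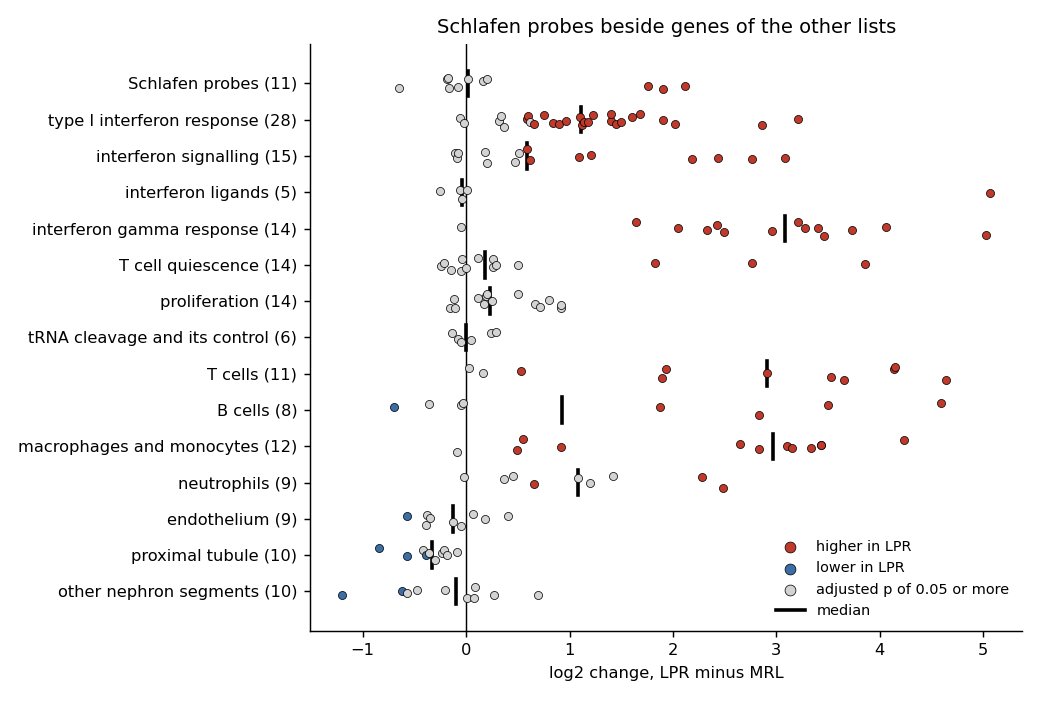
Log2 change (x axis, LPR minus MRL) of the 11 tested Schlafen probes and of the tested genes of each list (y axis, number in brackets), 1 point per probe or gene, red or blue where the adjusted p was under 0.05, with the median as a bar. The Schlafen median (0.02) lies below that of the type I interferon response (1.11), the gamma response (3.09), T cells (2.91) and macrophages (2.97).

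Slfn2 is known for keeping T cells quiescent, so other genes of T cell quiescence and genes of proliferation were listed beside it. Over all tested genes 7.12% were higher and 5.47% were lower. Of 14 quiescence genes 3 rose and 0 fell: Il7r, the receptor of interleukin 7 (3.86, SE 0.34), Ccr7, a homing receptor of naive and memory T cells (2.77, SE 0.27), and Runx1, a transcription factor of the blood lineages (1.83, SE 0.21). The transcription factors Foxo1 (-0.05), Klf2 (0.29) and Foxp1 (-0.04) did not pass. Of 14 proliferation genes 0 passed in either direction, although Top2a (0.92) and Mki67 (0.91) had positive values. Of 6 genes of transfer RNA cleavage and its control, among them Ang (0.04), 0 passed in either direction.

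Many markers of leukocytes were higher in LPR mice, where 7.12% of all tested genes were higher and 5.47% were lower. Of 11 tested T cell markers 9 rose, among them Cd2 (log2 change 4.64, SE 0.27) and the receptor chains Cd3g (4.15, SE 0.12) and Cd3d (4.14, SE 0.14), and their summed signal was 5.44 to 6.50 times the 75th percentile in MRL mice and 21.5 to 25.2 times in LPR mice. Cd8a (0.02) and Cd247 (0.16) did not pass. Of 12 markers of macrophages and monocytes 11 rose, among them Fcgr1 (4.23, SE 0.20) and C1qa (3.43, SE 0.16), with sums of 101 to 118 in MRL mice and 240 to 265 in LPR mice. Of 8 tested B cell markers 4 rose, with Cd79b at 2.83 (SE 0.20), and 1 fell, Ms4a1 (-0.70, SE 0.18), and their sums were 1.79 to 1.96 and 4.62 to 5.84. Of 9 neutrophil markers 3 rose, led by S100a8 (2.48, SE 0.38), with sums of 2.64 to 3.20 and 5.98 to 12.7. LPR 2 had the highest sum for the neutrophil markers and also for those of T cells, B cells and macrophages. Among the LPR mice, LPR 2 was the lowest for A_51_P504991 and A_66_P105585 and the highest for Slfn2. With each mouse left out in turn, 7 to 9 macrophage markers rose, 7 of them without MRL 2 and without LPR 3. Neutrophil markers that rose numbered 2 without any 1 of the MRL mice. The fall of Ms4a1 (adjusted p = 0.0497 in limma) was lost with each mouse left out. The B cell kinase Blk and the T cell adaptor Trat1 were not tested.

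Markers of the kidney itself were present in all mice. Of 10 proximal tubule markers 3 fell, Slc5a12 (-0.84, SE 0.13), Slc5a2 (-0.57, SE 0.12) and Lrp2 (-0.39, SE 0.10), and their sums were 1200.1 to 1270.1 in MRL mice and 908 to 1048 in LPR mice. Of 10 markers of other nephron segments 2 fell, Calb1 (-1.20, SE 0.28) and Atp6v1g3 (-0.62, SE 0.14), and of 9 endothelial markers 1 fell, Kdr (-0.57, SE 0.13). Over all tested genes 5.47% were lower, and with lists this short 1 or 2 calls do not set a list apart. In each of these falling markers, every LPR mouse lay below every MRL mouse, a pattern found in 26.9% of all tested probes. The markers were picked by their calls in the same mice, so this adds no support to the calls. When each mouse was left out in turn, 1 to 2 proximal tubule markers and 0 to 2 of the other segments fell. Of the endothelial markers 0 to 1 fell, and 1 only without LPR 2. Lower calls over all tested probes were also fewer in these fits, 760 to 2271 against 2461 with all mice. Whether any of these falls rests on a single mouse was not tested. The part of the leukocytes in the Schlafen changes was not tested: in RNA of the whole kidney, more Schlafen RNA per cell and more cells that carry it cannot be told apart. Fas itself did not pass the test by its brighter probe (-0.47, SE 0.24, adjusted p = 0.234 in limma). Its other probe rose at least 1.47-fold (adjusted p = 0.0338), a call lost under 12 of 21 alternatives, and where the probes lie relative to the lpr mutation was not examined.

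The Schlafen probes span 263 kb of chromosome 11 (mm9), from the 5′ probe of Slfn5 to the probe of Slfn3. Within 0.5 Mb of this span the array held 40 other genes, of which 33 were tested, 9 rose and 0 fell, and their median log2 change was -0.02. Over all tested genes 7.12% were higher and 5.47% were lower. Most of the 9 were the chemokine genes and Wfdc17 farther out, named below. Slfn10-ps was the 1 tested gene of the 40 inside the span. On the side of Slfn5, the nearest gene was Unc45b, a myosin chaperone, with 0.11 (SE 0.13), and none of the genes on that side passed the test. On the side of Slfn3, AI662270 rose, with log2 changes of 2.81 (SE 0.18) for 1 probe and at least 9.24-fold for the other, and a transcript known only as ENSMUST00000117952 was at least 1.45-fold higher. Ap2b1, of endocytosis, did not pass. Farther out, 574 to 753 kb from the first Schlafen probe, lay the chemokine genes Ccl5 (4.68, SE 0.16), Ccl9, Ccl6 (3.03, SE 0.24), Ccl3 (at least 13.3-fold) and Ccl4 (4.71, SE 0.19 for the probe above background in all 6 mice), all of which rose, and Wfdc17 (4.73, SE 0.18). Along the cluster, the probes that rose thus lay between those of Slfn5 and Slfn3, which did not pass the test. They were probes of Slfn8, Slfn10-ps and Slfn2 and the shared probe of the long group. The other probes of Slfn8 and Slfn9, which did not pass either, lay in the same stretch.

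**Figure D5:**
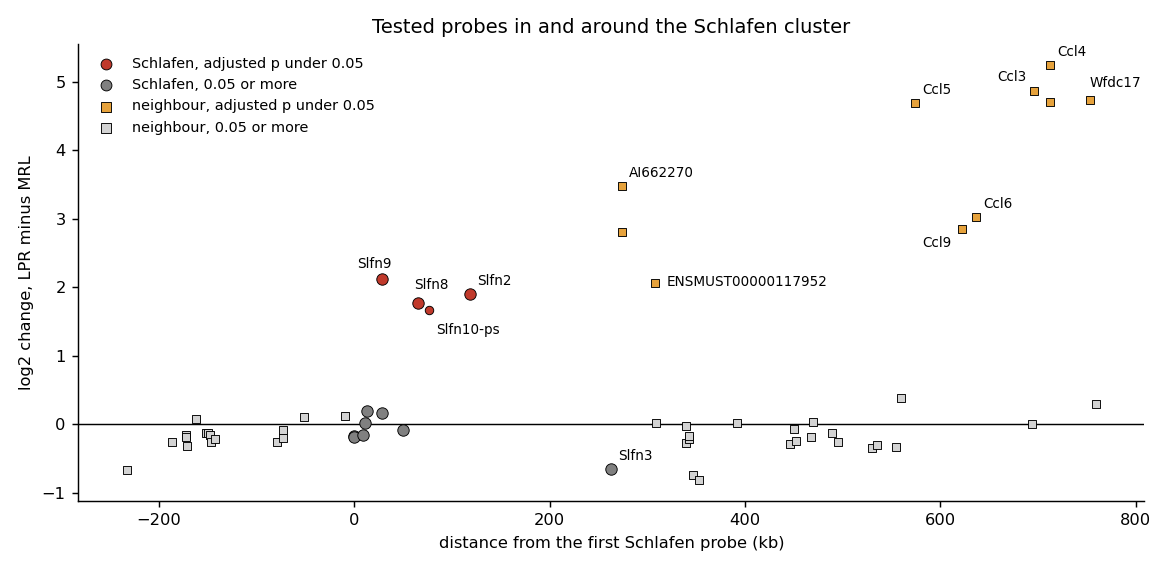
Log2 change (y axis, LPR minus MRL) of tested probes against their distance in kb from the first Schlafen probe (x axis), with Schlafen probes as circles and neighbouring genes as squares, coloured where the adjusted p was under 0.05. Called Schlafen probes lie between 28.9 and 118 kb, and the chemokine genes lie 574 kb away or farther.

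The genes whose values were most like those of each member over the 6 arrays were sought among 23313 genes, as a description. For Slfn2 they were Itgal, an integrin of leukocytes, Oas1f, an oligoadenylate synthetase, and Ccl9, each with a Pearson r of 0.999. Itgal and Ccl9 had log2 changes of 3.17 and 2.86, above that of Slfn2, and Oas1f had 1.57. For Slfn3 they were Rnf13 (r = 0.998), Gm20878 (0.995) and Epb41 (0.993), with log2 changes between -0.15 and -0.42 that did not pass the test. For the brightest probe of Slfn5 they were Hells (0.996), a chromatin remodeller, Cep192 (0.990), a protein of the centrosome, and a transcript named only by its position. For the brightest tested probe of Slfn9, A_55_P2110537, they were Dnase2a (0.996), Atg16l1 (0.983) and Stx12 (0.981). For that of Slfn8, A_55_P2117656, they were Caml (0.978), ENSMUST00000117794 (0.971) and Tpbg (0.969). These are the probes of the 2 genes that did not pass the test. The sequence of the first recurs near other genes, and the second was well above background in only 2 mice of each group. The 6 values share their 2 groups and 1 slide.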

How the data were processed

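Kidney RNA of 3 MRL and 3 LPR mice was labelled with Cy3 and hybridized to 6 single-colour Agilent arrays. The labels name the RNeasy Mini Kit for the RNA, and the paper names Trizol. The authors deposited background-subtracted, detrended intensity values per spot from Agilent Feature Extraction 12.0.3.1, without normalization between arrays. A value table that the authors deposited as well holds the ratio of each intensity to the 75th percentile of its array and was used as an alternative.

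Per array, 73 to 90 outlier spots were left out, log2 intensities were shifted to the 75th percentile (706 to 942) of the 59305 spots that are not controls, and spots of a probe were averaged. Between 69.6% and 73.5% of spots were well above background and 0 were saturated. Precision is limited by the number of arrays. Probes above background on at least 3 of 6 arrays were tested with limma 3.58.1 in R 4.3.3 (2-sided, Benjamini-Hochberg, threshold 0.05). For lists, the brightest tested probe stands for a gene. The steps were tested on simulated data.

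Every Schlafen probe, every interferon ligand and signalling gene and the 4 largest passing changes of the other lists are named, with Fas, the neighbours that passed (up to 6 genes, to which AI662270, ENSMUST00000117952 and flanking genes were added) and the 3 genes most like each member. Genes outside this rule that did not pass were named after their values were seen. The members and lists were chosen with earlier results of these data known. Mice of different groups are different animals and each gave 1 array. The p-values thus measure the spread between animals together with that of RNA, labelling and array, which cannot be told apart. Slide position was partly tied to group, because LPR 2 and LPR 3 lay in another column of the slide than the other mice. Alternatives were another background correction, normalization, filter, test, block or floor, averaged probes per gene, and the fits without 1 of the mice. Protein sequences were not used here. A few genes that the naming rule covers are left out of the text but kept in the counts. The search of probe sequences in promoter windows was added after the values were seen. Python 3.11.15 with matplotlib 3.10.9 made the figures.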

Additional observations from a re-analysis of the deposited data

How the results depend on the processing

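Of the 22 alternatives run for the count of higher Schlafen probes, 21 gave 2 to 4, and the methods' t-test on linear values with adjustment gave 1, that of Slfn2. Leaving out each mouse in turn gave 3 each time. No alternative called a Schlafen probe lower. The type I interferon list, 22 genes, gave 13 with the slide position as a block, 13 with the methods' t-test on log2 values with adjustment and 13 with it on linear values, and 15 to 24 with each mouse left out. The cause was not tested, except that the block leaves LPR 1 against the 3 MRL mice. Signs turned only in probes that did not pass, apart from the mean of both Slfn8 probes. A_55_P2117656 of Slfn8 went to 0.13 with the slide position as a block, 0.84 as the mean of both probes, and lay between -0.36 and 0.21 with each mouse left out. A_66_P128525 of Slfn5 went to 0.11 with the slide position and lay between -0.29 and 0.039 with each mouse left out. A_55_P2804417 of Slfn5 lay between -0.086 and 0.213 with each mouse left out. A_51_P364694 of Slfn5 went to -0.059 as the mean of its 5 probes, and A_55_P2110537 of Slfn9 lay between -0.0095 and 0.46 with each mouse left out.

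The replicate numbers come from the labels and mark different animals. The correlations of the deviations of same-numbered mice were 0.12, 0.02 and 0.01, so the numbers do not pair the mice. With the replicate block, 3 Schlafen probes and 19 interferon genes were higher, and 2199 probes were higher and 1117 lower over the array, where the fit without it gave 2606 and 2461. Over all tested probes the normexp setting gave 2533 higher and 4496 lower, all-array detection 2158 and 3003, no filter 2150 and 1092, the percentile over detected probes 2669 and 1771, and the intensity trend 2882 and 3479. The slide position gave 1458 and 463, and the adjusted t-test 1736 and 1385 on log2 and 1444 and 1353 on linear values. Leaving out 1 mouse gave 1958 to 2371 higher and 760 to 2271 lower. The shared probe of the long group did not pass the adjusted t-tests, nor did Slfn10-ps or, on linear values, Slfn8. Dim probes limit Slfn1, Slfn4 and Slfn8.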
